A study of Mus musculus with 20 samples.

Results

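The high fat diet arm of a mouse atherosclerosis time course was compared between its first and last diet time points, week 30 and week 6, in 6 of the 20 microRNA arrays of the study, 3 arrays per week. The arrays were chosen by their titles, which name the week, the diet and the replicate. Each array carried RNA of an ascending aorta with atherosclerotic lesion from a male double knockout mouse, whose genotype the labels write as Apobtm2Sgy/Ldltm1Her. All groups share that genotype, the controls included. The groups used here were high fat diet at week 30, high fat diet at week 18, high fat diet at week 6, chow at week 30 and chow at week 6, with 3 arrays each. Chow at week 0 (2 arrays) and chow at week 18 (3 arrays) entered only the estimate of the spread between arrays. The labels give the same number of weeks as the age of the mouse and as the time on diet, so the age at the start of the diet is not settled by them. The series' design text calls the high fat diet rich in cholesterol. The labels do not say whether an array holds 1 mouse or a pool, and each p-value therefore reflects how far these particular samples differ, part of which may be technical.

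MicroRNAs (miRNAs) are short RNAs that pair with messenger RNAs, mostly through a seed near their 5′ end, and lower the output of those targets. Apolipoprotein B is the main protein of low density lipoprotein (LDL), the tm1Her allele is known as a knockout of the LDL receptor, and mice that cannot clear these particles build lesions in the ascending aorta. An early lesion holds mainly macrophages filled with lipid, recruited as monocytes across the endothelium, and a later lesion gains smooth muscle cells, collagen and a core of dead cells and lipid. Several miRNAs are known to mark these cells: miR-142 and miR-223 those of blood origin, miR-143 and miR-145 smooth muscle, and miR-126 endothelium. Others, such as miR-146a, miR-155 and miR-21, are known to be induced in inflamed or injured tissue.

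The mature sequences below are those of the miRNAs that the comparison turned on, from RefSeq with its build GRCm38.p6, written 5′ to 3′ with the seed (bases 2 to 8) in capitals. The first pair are the 2 arms of the miR-142 hairpin, which were the miRNAs that passed the test. The second set shows families with a shared seed whose members lay lower at week 30, and the third set miRNAs that lay higher at week 30.

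mmu-miR-142a-3p: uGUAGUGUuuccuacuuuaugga

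mmu-miR-142a-5p: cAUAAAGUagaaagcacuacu

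mmu-miR-98-5p: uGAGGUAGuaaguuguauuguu

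mmu-let-7f-5p: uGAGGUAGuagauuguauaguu

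mmu-let-7i-5p: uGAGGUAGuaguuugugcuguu

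mmu-miR-20b-5p: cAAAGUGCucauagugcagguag

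mmu-miR-20a-5p: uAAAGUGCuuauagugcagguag

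mmu-miR-106b-5p: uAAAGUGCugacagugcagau

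mmu-miR-15a-5p: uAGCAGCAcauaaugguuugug

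mmu-miR-195a-5p: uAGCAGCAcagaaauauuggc

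mmu-miR-146a-5p: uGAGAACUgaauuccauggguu

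mmu-miR-146b-5p: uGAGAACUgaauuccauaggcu

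mmu-miR-188-5p: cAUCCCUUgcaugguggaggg

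mmu-miR-3057-5p: aUUGGAGCugagauucugcgggau

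mmu-miR-296-5p: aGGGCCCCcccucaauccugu

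mmu-miR-7036a-5p: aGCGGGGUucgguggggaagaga

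Each array carried 56430 spots for 1881 mouse miRNAs, and 237 of these were detected on all 6 arrays and 1050 on 0 of the 6. The week 30 high fat arrays detected 355, 742 and 645 miRNAs. Of the week 6 high fat arrays, replicates 2 and 3 detected 588 and 345 and replicate 1 more than either, so the ranges overlap and each week holds 1 array with few. The 3 week 30 arrays lay on slide 3 and the 3 week 6 arrays on slide 1, so week and slide cannot be told apart. Over the miRNAs detected on all 20 arrays, week 30 replicates 2 and 3 differed by an SD of 0.18 on the log2 scale, while the median pair of arrays of 1 group differed by 1.02. Spot error within the arrays came to 0.0276 for that pair, a comparison that does not show whether 2 RNA samples or 1 were hybridised. They were kept as the 2 samples the labels name, and with them averaged 0 miRNAs were called. Week 6 replicate 1 differed from week 30 replicates 2 and 3 by 0.67 and 0.77, less than from week 6 replicates 2 and 3 (1.30 and 1.27). From week 30 replicate 1 it differed by 1.34, and its nearest arrays of all were week 30 chow replicates 3 and 2 (0.465 and 0.468). Week 18 high fat replicate 3 stood apart in quality, with an SD of its negative controls of 22.3, against 2.10 to 2.53 on the other 19 arrays, a median detected signal of 267, against 37.4 to 66.3, and 328 detected miRNAs. On the first principal component, which held 46.4% of the variance, the week 30 arrays scored 31.3, 14.1 and 16.4 and the week 6 arrays 0.14, -26.4 and -0.11. The slide positions in the sample descriptions and in the files differ for 3 of the 6 arrays, all of week 30 high fat, and for 0 of these would the described position place the array in another group.

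Levels are log2 of the processed intensity after each array was scaled by the 75th percentile of the miRNAs detected on all arrays, with a common floor of 3.09, at which values have no order. The test took the 609 miRNAs that some group detected on all of its arrays. With limma's moderated test over all 20 arrays and Benjamini-Hochberg adjustment, 2 of the 609 passed an adjusted p of 0.05 (0.328%), both lower at week 30, and 0 were higher. Leaving out week 6 replicate 1 gave 78 higher and 64 lower, leaving out any other of the 6 arrays gave 0 and 0, and leaving out week 18 high fat replicate 3, which only informs the spread, gave 1 and 3. Without adjustment, 220 had p under 0.05, of which 94 were lower at week 30 and the others higher. A further group of values lay close to the threshold, and 93 miRNAs had an adjusted p under 0.07. The median log2 difference over the 609 was -0.40, and values for families below are read beside it. This median was -0.09 without week 6 replicate 2 and -0.29 without week 30 replicate 1, 0 with no detection filter, and 0.30 over only the miRNAs detected on all 20 arrays.

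The split between higher and lower depended on the scaling. With the percentile taken over all miRNAs 13 were called higher and 3 lower, with quantile normalization 60 and 10, with normexp background correction 3 and 3, and with no scaling 0 and 0. Normexp moved the median of the 609 to -0.12. By position alone, all 3 week 30 arrays lay above all 3 week 6 arrays for 161 miRNAs (26.4%) and below them for 71 (11.7%), so that 38.1% of the tested miRNAs did not overlap between the weeks.

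**Figure D1:**
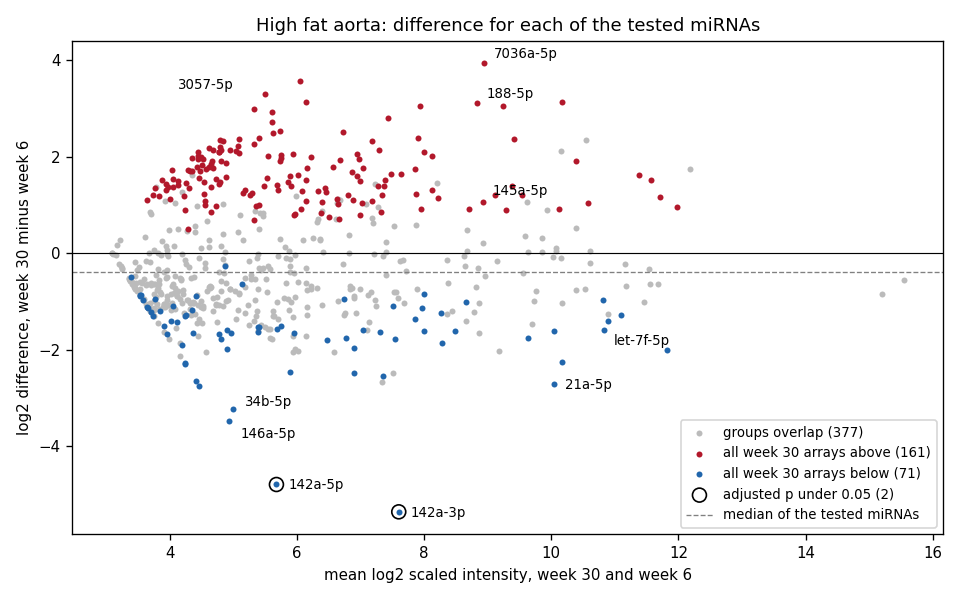
Log2 difference (week 30 minus week 6, high fat) against the mean log2 scaled intensity of both weeks for each of the 609 tested miRNAs. Points are coloured by whether the 3 arrays of each week overlap, and rings mark the 2 miRNAs past the threshold, which lie at the lower end of the plot.

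Both arms of miR-142 fell in the late high fat aorta. This miRNA is made in cells of blood origin and is used as a mark of leukocytes. The 3p arm had 3.09, 5.97 and 5.70 at week 30 high fat, against 8.05, 11.10 and 11.70 at week 6 high fat. All week 30 arrays lay below all week 6 arrays, replicate 1 of week 30 was at the floor and 2 of the 3 week 30 arrays detected it. Its mean was 4.92 ± 1.59 at week 30 and 10.28 ± 1.96 at week 6 (SD, n = 3 each), and its log2 difference was -5.36 (SE 1.02, limma adjusted p = 0.0235), which is 41.1-fold with the floor value included. The log2 difference was -4.45 without week 30 replicate 1, -4.65 without week 6 replicate 3, -6.48 without week 6 replicate 1 and -3.45 with normexp background correction.

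The 5p arm had 3.09, 3.66 and 3.09 at week 30 high fat, against 6.15, 9.24 and 8.84 at week 6 high fat. Only 1 of the 3 week 30 arrays detected it, while all 3 week 6 arrays did. The log2 difference was -4.80 (SE 0.93, limma adjusted p = 0.0235), or -5.76 without week 6 replicate 1, -4.21 without week 6 replicate 2 and -2.17 with normexp. The probes of the 3p arm map in mm9 to chr11:87756904-87756925 and those of the 5p arm to chr11:87756870-87756887, within 1 hairpin, the gene Mir142, which no other gene of the RefSeq table spans. Both calls were lost, with the sign kept, when any 1 of week 30 replicates 1, 2 and 3 or week 6 replicates 2 and 3 was left out (limma adjusted p between 0.0510 and 0.242 over both arms), and were kept without week 6 replicate 1 (0.00418 for both). They were lost as well when the near-identical week 30 arrays were averaged (0.106 for the 3p arm and 0.149 for the 5p arm) and when only the compared groups were fitted (0.103 for both). Both were also lost with no scaling (0.224), without the detection filter (0.0524) and with the median of probes (0.0545). The same held without the array with the fewest detected miRNAs of each high fat group (0.209). With the floor lower by 1 the 3p arm passed (0.0341) and the 5p arm did not (0.0659).

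The other myeloid miRNAs that were tested lay in the same direction without passing the test. In this list of 8, 4 were tested and all 4 had week 30 arrays below all week 6 arrays (11.7% over all tested). Their median log2 difference was -3.28, against -0.40 over all tested miRNAs. Over the alternatives, some of which changed the members tested, it ran from -4.14 (without week 6 replicate 1) to -0.93. The mean level of the 4 ranged from 3.94 to 4.91 at week 30 and from 6.19 to 8.83 at week 6. miR-223-3p, which neutrophils and monocytes make in large amounts, had 6.47, 6.86 and 6.64 at week 30 high fat, against 6.93, 8.77 and 9.58 at week 6 high fat (log2 difference -1.77, SE 0.55, limma adjusted p = 0.0614). miR-511-3p, which lies within Mrc1, the gene of the macrophage mannose receptor, had 3.09, 3.15 and 3.24 at week 30 high fat, against 3.66, 5.17 and 5.18 at week 6 high fat (-1.51, SE 0.47, limma adjusted p = 0.0614). The groups did not overlap for either. In whole tissue, fewer cells of a type and less RNA per cell cannot be told apart.

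**Figure D2:**
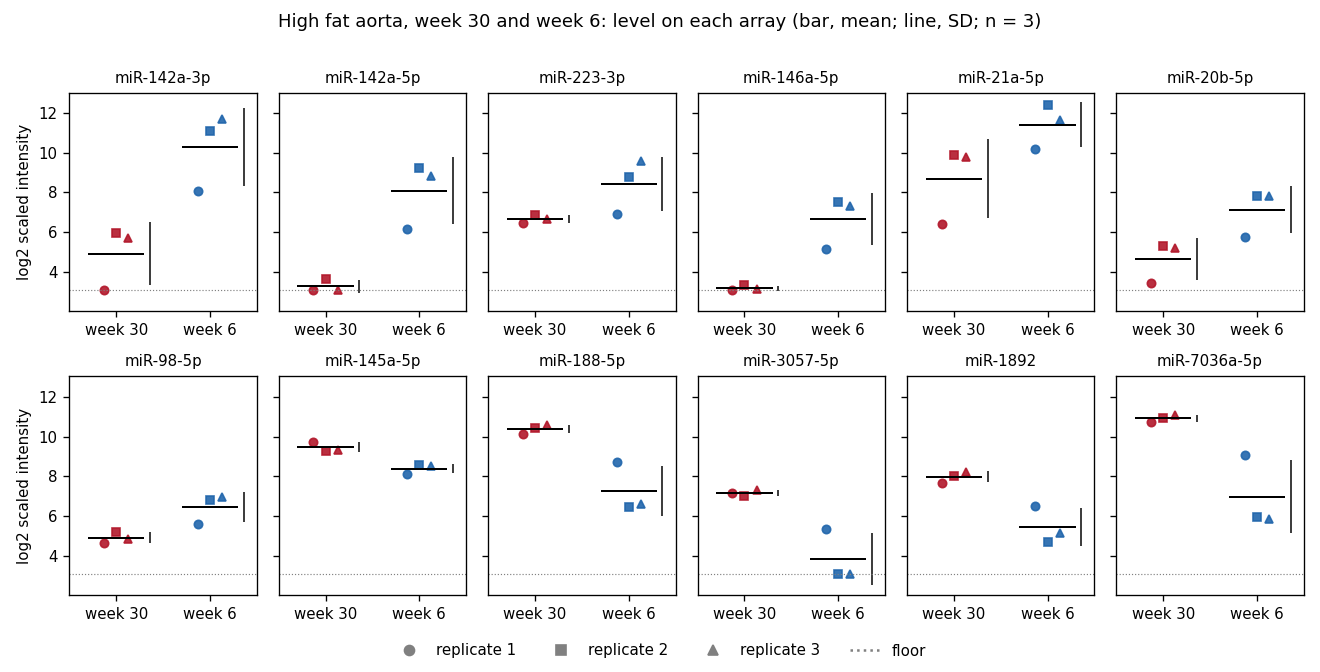
Log2 scaled intensity of 12 miRNAs on each high fat array, week 30 left and week 6 right, with the mean as a bar and the SD as a line (n = 3 each). The miRNAs of the upper row and miR-98-5p lay lower on all 3 week 30 arrays, and the other 5 lay higher, with week 6 replicate 1 nearest to week 30 in most panels.

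Among miRNAs induced by NF-kB, the transcription factor of the inflammatory response, 4 of 9 listed were tested and 0 were called. Their median log2 difference was -1.55, and it ran from -2.26 (without week 6 replicate 1) to 0 over the alternatives. miR-146a-5p, which represses adaptors of that pathway and so limits it, had 3.09, 3.32 and 3.14 at week 30 high fat, against 5.17, 7.54 and 7.30 at week 6 high fat. All week 30 arrays were at or just above the floor and below every week 6 array, with a log2 difference of -3.49 (SE 0.90, limma adjusted p = 0.0570). Its paralog miR-146b-5p, with the same seed, was detected on 0 week 30 arrays and on 2 of 3 week 6 arrays, at least 2.17-fold lower at week 30 (limma adjusted p = 0.114). miR-155-5p, which activated macrophages and lymphocytes make, had 5.87, 4.41 and 4.67 at week 30 high fat, against 5.28, 7.69 and 7.95 at week 6 high fat (-1.99, limma adjusted p = 0.142), and the groups overlapped through replicate 1 of each week.

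miR-21a-5p, a miRNA of vascular injury and fibrosis, lay lower at week 30 without passing the test. It had 6.40, 9.87 and 9.79 at week 30 high fat, against 10.17, 12.38 and 11.66 at week 6 high fat. The groups did not overlap, and the log2 difference was -2.72 (SE 0.78, limma adjusted p = 0.0614). Of 11 listed miRNAs of injury and vascular remodelling, 7 were tested, with a median log2 difference of -0.63. Of the 7, 3 lay below on all week 30 arrays and 0 above (11.7% and 26.4% over all tested). In the same list miR-34b-5p had 3.09, 3.70 and 3.35 at week 30 high fat, against 4.85, 10.03 and 4.98 at week 6 high fat (-3.24, SE 1.75, limma adjusted p = 0.183), and its high mean at week 6 came from replicate 2. miR-221-3p and miR-222-3p, which share a seed and act on smooth muscle and endothelial growth, had log2 differences of -0.61 and -0.09 (limma adjusted p = 0.287 and 0.927), and the sign of miR-222-3p turned when any 1 of week 30 replicates 2 and 3 or week 6 replicates 2 and 3 was left out (0.14 to 0.25).

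Of 10 listed lymphocyte miRNAs, 8 were tested, 0 were called and the median log2 difference was -1.05. Of the 8, 1 lay below on all week 30 arrays (11.7% over all tested). miR-150-5p, the mark of mature B and T cells, had 8.39, 5.25 and 5.17 at week 30 high fat, against 6.82, 9.10 and 10.36 at week 6 high fat (-2.49, SE 1.12, limma adjusted p = 0.121). Replicate 1 stood apart in both weeks, high at week 30 and low at week 6, and the groups overlapped. miR-128-3p had 4.40, 4.21 and 3.82 at week 30 high fat, against 4.79, 6.48 and 6.09 at week 6 high fat (-1.65, SE 0.52, limma adjusted p = 0.0614), with no overlap. The members of the miR-181 family with the seed ACAUUCA, of which 4 were tested, ranged from -1.29 to -0.63. Of the 4, 0 were separated by week (38.1% over all tested).

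Members of 1 family share a seed. Of the 16 seeds held by 3 or more tested miRNAs with a known mature sequence, 14 had a median log2 difference below 0 and 2 above it. The median over all tested miRNAs was -0.40, and of the 14 seeds CCCUGAG (-0.13) and UGGGAGA (-0.02) lay above that value. Relatives with nearly the same sequence can hybridise to one another's probes, so members of a family are not independent measurements. The let-7 family, which holds back growth genes such as Ras and Hmga2, is the largest of them, and the list of 11 with miR-98 was tested in full: all 11 differences were negative, 5 lay below on all week 30 arrays (as did 11.7% of all tested miRNAs), 0 were called and the median was -1.24. let-7f-5p had 9.59, 10.40 and 10.11 at week 30 high fat, against 10.87, 12.10 and 11.92 at week 6 high fat (-1.59, SE 0.41, limma adjusted p = 0.0570). miR-98-5p had 4.66, 5.21 and 4.85 at week 30 high fat, against 5.61, 6.83 and 6.98 at week 6 high fat (-1.57, SE 0.39, limma adjusted p = 0.0570). let-7i-5p had a log2 difference of -1.76 and let-7g-5p one of -1.61 (limma adjusted p = 0.0570 and 0.0638). The probes of miR-98-5p and of 1 of the 2 let-7f-5p copies map near each other on the X chromosome, at chrX:148347773-148347793 and chrX:148346897-148346917 in mm9, and both genes lie within Huwe1 in the RefSeq table.

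The miR-17~92 cluster and its paralogs drive cell division and survival, and their main seed is AAAGUGC. Of 14 listed members, 13 were tested, 12 had a negative difference, 6 lay below on all week 30 arrays (11.7% over all tested), and 0 were called. The median was -1.03, and it ran from -1.70 (without week 6 replicate 1) to -0.57 over the alternatives. miR-20b-5p had 3.44, 5.33 and 5.21 at week 30 high fat, against 5.77, 7.82 and 7.80 at week 6 high fat (-2.47, SE 0.68, limma adjusted p = 0.0570). miR-20a-5p, from the chromosome 14 cluster, differed by -2.48 and miR-106b-5p, from within Mcm7, by -1.64 (limma adjusted p = 0.0614 and 0.0659). miR-19a-3p, which has another seed in the same cluster, had 3.09, 4.46 and 4.17 at week 30 high fat, against 4.74, 6.71 and 6.23 at week 6 high fat (-1.99, SE 0.63, limma adjusted p = 0.0614). In each of these, replicate 1 was the lowest array of its week.

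The miR-15 and miR-16 family restrains the cell cycle through cyclins and Bcl2, and so has the opposite known role. It lay on the same side: of 8 listed, 7 were tested, all 7 were negative, 5 lay below on all week 30 arrays (11.7% over all tested), 0 were called and the median was -1.61, or -0.90 without week 30 replicate 1. The seed AGCAGCA is held by 6 of the 7, of which 4 lay below, while miR-503-5p has AGCAGCG. miR-16-5p had 6.40, 9.14 and 8.94 at week 30 high fat, against 9.12, 10.68 and 10.80 at week 6 high fat (-2.04, SE 0.71, limma adjusted p = 0.0695), with overlap of 1 array from each week. miR-15a-5p differed by -1.86 and miR-195a-5p by -1.61 (limma adjusted p = 0.113 and 0.0878). miR-503-5p, from the X chromosome, was at the floor on all 3 week 30 arrays.

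The cell types of the vessel wall itself gave differences of both signs. Of the 5 listed smooth muscle miRNAs 3 were tested, 0 were called and the median difference was 0.13, whose sign turned when any 1 of week 30 replicates 2 and 3 or week 6 replicate 1 was left out (-0.11 to -0.020), and which was 0.74 without week 30 replicate 1. miR-145a-5p, which keeps smooth muscle in its contractile state, had 9.75, 9.28 and 9.34 at week 30 high fat, against 8.14, 8.55 and 8.50 at week 6 high fat. The groups did not overlap, the spread within each week was small (SD 0.26 and 0.23), and the difference was 1.06 (SE 0.34, limma adjusted p = 0.0614). Its cluster partner miR-143-3p had 8.72, 10.80 and 10.78 at week 30 high fat, against 9.90, 10.42 and 9.83 at week 6 high fat, a difference of 0.05 (SE 0.54, limma adjusted p = 0.953) whose sign turned when any 1 of week 30 replicates 2 and 3 or week 6 replicates 1 and 3 was left out (-0.30 to -0.020). The markers of the labelled tissue, miR-143, miR-145 and miR-126, were thus detected on all 6 arrays in at least 1 arm, and miR-122-5p, the mark of liver, was at the floor on 4 of the 6.

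miR-126a-3p, made in endothelium from within Egfl7, had 9.30, 11.12 and 10.94 at week 30 high fat, against 11.50, 12.14 and 11.61 at week 6 high fat. It lay below on every week 30 array (-1.29, SE 0.60, limma adjusted p = 0.133), most of all in replicate 1. Of 6 fibroblast miRNAs 5 were tested and 0 called, with a median of -1.05, or -0.37 without week 30 replicate 1. In that list miR-199b-5p lay lower on all week 30 arrays (-1.37, limma adjusted p = 0.0659), miR-214-3p lay higher on all of them (1.06, limma adjusted p = 0.224) and miR-199a-3p overlapped (-1.41, limma adjusted p = 0.137). The miR-29 family, which represses collagen and elastin messages, had 4 tested members of 7, all negative. In this family 0 were separated by week (38.1% over all tested) and the median was -0.82. In it miR-29a-3p had 11.25, 11.32 and 11.12 at week 30 high fat, against 11.15, 12.37 and 12.11 at week 6 high fat (-0.65, limma adjusted p = 0.185).

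The main striated muscle miRNAs were detected on all 6 arrays. miR-1a-3p, of heart and skeletal muscle, had 7.15, 10.11 and 9.86 at week 30 high fat, against 11.54, 11.90 and 10.47 at week 6 high fat (-2.27, SE 1.27, limma adjusted p = 0.192), and miR-133a-3p had 11.98, 9.35 and 9.15 at week 30 high fat, against 10.90, 11.16 and 10.64 at week 6 high fat (-0.74, limma adjusted p = 0.570). Replicate 1 of week 30 was the lowest of the 6 for the first and the highest for the second. Of the list's 10, 5 were tested, 0 were called, and the median difference was -0.90. It was -1.60 without week 30 replicate 1, -1.73 without week 6 replicate 3 and -0.61 without week 6 replicate 2. The mean level of these 5 ranged from 8.01 to 8.43 at week 30 and from 8.68 to 9.92 at week 6. Their part in the other results was not tested.

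Epithelial miRNAs, which mark another tissue than the vessel wall, lay lower at week 30 without passing the test. Of 10 listed, 9 were tested, all 9 were negative, 7 lay below on all week 30 arrays (11.7% over all tested) and the median was -2.13. It was -1.12 without week 6 replicate 2, -3.30 without week 6 replicate 1 and -0.81 with normexp. miR-200b-3p, a repressor of Zeb1 and Zeb2, was at the floor on all 3 week 30 arrays, against 3.52, 8.49 and 5.50 at week 6 high fat. miR-200c-3p was detected on 0 week 30 arrays and had 3.09, 7.68 and 4.88 at week 6 high fat, at least 4.37-fold lower at week 30 (limma adjusted p = 0.203), a bound that was 1.86 without week 6 replicate 2 and 9.13 without week 6 replicate 1. miR-96-5p was likewise detected on 0 week 30 arrays and on 2 week 6 arrays, at least 2.45-fold lower (limma adjusted p = 0.114). Week 6 replicate 2 was the highest array for each of these 3, and 0 of the 9 were called. The mean level of the 9 ranged from 3.31 to 3.32 at week 30 and from 3.72 to 7.14 at week 6, and the part of epithelium in the other results was not tested.

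Other cell types were covered by short lists. Of 6 red blood cell miRNAs 4 were tested with a median of -0.65, and miR-451a had 9.19, 10.91 and 10.68 at week 30 high fat, against 10.73, 11.75 and 12.11 at week 6 high fat (-1.27, limma adjusted p = 0.201). Of 11 adipose miRNAs 10 were tested, 8 had a positive difference and the median was 0.28, or -0.22 without week 30 replicate 1. miR-193b-3p had 11.83, 9.60 and 9.68 at week 30 high fat, against 9.68, 9.40 and 9.37 at week 6 high fat, so the high value was replicate 1 of week 30 (0.89, limma adjusted p = 0.339). miR-378a-3p, also of brown fat, showed the same array high, with 11.72 against 10.02 and 10.19 on the other week 30 arrays, and without it the difference was -0.021. In the neuron list 3 of 7 were tested, with a median of -0.88, and in the liver list 3 of 4, with a median of -0.89. miR-122-5p, the main liver miRNA, was detected on 2 week 30 arrays and on 0 week 6 arrays, at least 2.45-fold higher at week 30 (limma adjusted p = 0.149), or 3.95 without week 30 replicate 1.

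Regulators of cholesterol were measured in 10 of 13 listed forms, with 0 called and a median of -0.87. Of the 10, 3 lay below on all week 30 arrays (11.7% over all tested). miR-148a-3p, which represses the LDL receptor and the cholesterol exporter Abca1, had 4.18, 6.87 and 6.67 at week 30 high fat, against 6.98, 8.64 and 8.02 at week 6 high fat (-1.98, SE 0.65, limma adjusted p = 0.0629). miR-10b-5p, of a family within the Hox gene clusters, had 4.92, 6.50 and 6.24 at week 30 high fat, against 6.89, 7.75 and 8.32 at week 6 high fat (-1.76, SE 0.61, limma adjusted p = 0.0695), and its relative miR-10a-5p differed by -1.10 (limma adjusted p = 0.114). Both were separated by week. miR-210-3p, which hypoxia induces, had 6.31, 6.16 and 6.23 at week 30 high fat, against 5.29, 6.06 and 6.52 at week 6 high fat (0.28, SE 0.41, limma adjusted p = 0.598). miR-204-5p differed by -0.63 (SE 0.35, limma adjusted p = 0.187). miR-33-5p, which sits in the gene of the cholesterol regulator Srebf2, was detected on 0 of the 6 arrays and was not tested.

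In the Sfmbt2 cluster families (miR-297, miR-466, miR-467 and miR-669), an imprinted group of many near-identical copies, 42 of 61 listed were tested and 39 were negative. Of the 42, 0 were separated by week in either direction (38.1% over all tested). The median was -1.01, or -0.40 without week 6 replicate 2 and -1.82 without week 6 replicate 3. The probes of these copies can share signal. In the imprinted Dlk1-Dio3 cluster 15 of 34 listed were tested. Of the 15, 5 lay below and 1 above on all week 30 arrays (11.7% and 26.4% over all tested). The median of this cluster was -0.72. It was 1.39 over only the members detected on all 20 arrays, 0 with no detection filter, -0.12 with normexp, and between -1.02 and -0.43 when 1 of the 6 arrays was left out. miR-379-5p was at the floor on all 3 week 30 arrays, against 3.52, 4.85 and 4.59 at week 6 high fat (-1.23, SE 0.41, limma adjusted p = 0.0638), while miR-134-5p of the same cluster had 6.09, 6.12 and 6.34 at week 30 high fat, against 5.39, 3.41 and 5.57 at week 6 high fat (1.39, SE 0.57, limma adjusted p = 0.104). The miR-23, miR-27 and miR-24 clusters, with 6 of 7 tested, had a median of -0.17, whose sign turned without week 30 replicate 1 (0.07) or week 6 replicate 2 (0.036), and the miR-30 family, all 7 tested, had a median of -0.53.

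**Figure D3:**
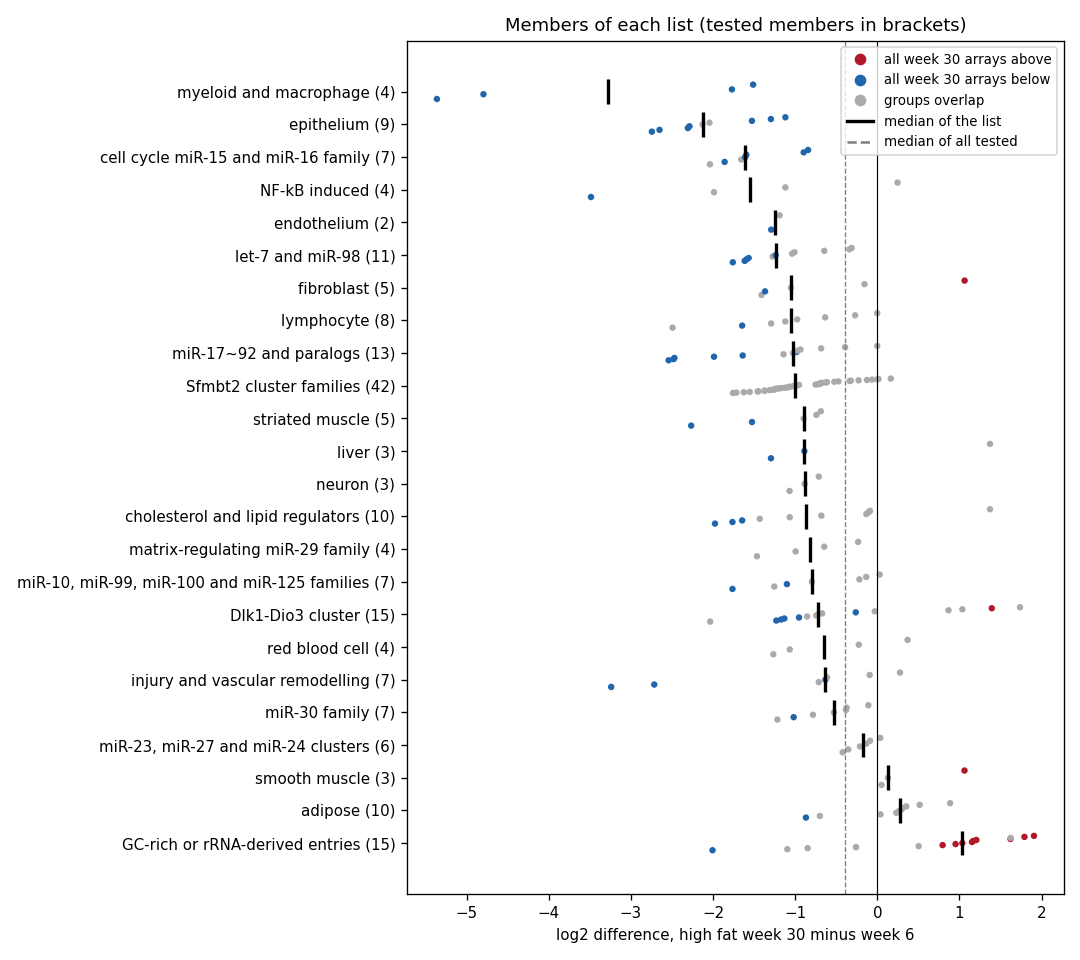
Log2 difference (week 30 minus week 6, high fat) of each tested member of 24 lists, ordered by the list median (black bar), with the number of tested members in brackets and points coloured by whether the arrays of the weeks overlap. The medians of 21 lists are below 0, and those of smooth muscle (0.13), adipose (0.28) and GC-rich entries (1.04) are above it.

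Of the miRNAs that lay higher at week 30, 0 passed the test. The 8 with the smallest p were miR-5135, miR-188-5p, miR-3057-5p, miR-1249-3p, miR-6954-5p, miR-1892, miR-7668-3p and miR-296-5p, each separated by week and each with a limma adjusted p of 0.0570. miR-188-5p, within the chloride transporter gene Clcn5, had 10.15, 10.42 and 10.58 at week 30 high fat, against 8.72, 6.47 and 6.62 at week 6 high fat (3.11, SE 0.75). miR-3057-5p, within Apba3, had 7.15, 6.99 and 7.31 at week 30 high fat, against 5.37, 3.09 and 3.09 at week 6 high fat (3.30, SE 0.80). In both, the week 30 arrays were tightly grouped and week 6 replicate 1 was the highest of its week.

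The same shape was seen in the others. miR-1892, within Sptssa, had 7.68, 8.03 and 8.24 at week 30 high fat, against 6.53, 4.72 and 5.14 at week 6 high fat (2.52, SE 0.65). miR-7668-3p, within Zfp27, had 6.94, 6.70 and 6.80 at week 30 high fat, against 5.31, 3.09 and 3.09 at week 6 high fat (2.98, SE 0.78). miR-296-5p had 6.49, 6.39 and 7.20 at week 30 high fat, against 5.65, 4.91 and 4.73 at week 6 high fat (1.60, SE 0.42). Week 6 replicate 1 was again the nearest to week 30 in each of these 3. The largest positive difference of all, named here after its value was seen, was that of miR-7036a-5p, with 10.72, 10.95 and 11.08 at week 30 high fat, against 9.09, 5.96 and 5.88 at week 6 high fat (3.94, SE 1.05, limma adjusted p = 0.0570).

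Entries on the array that are rich in G and C or come from ribosomal RNA formed a list of their own. Of 20 listed, 15 were tested, 11 had a positive difference, 0 were called and the median was 1.04. On all week 30 arrays 9 lay above and 1 below (26.4% and 11.7% over all tested). miR-709 had 11.55, 11.20 and 11.29 at week 30 high fat, against 10.15, 8.43 and 9.73 at week 6 high fat (1.91, SE 0.73, limma adjusted p = 0.0928). miR-2861 had 10.25, 9.35 and 9.57 at week 30 high fat, against 8.40, 7.97 and 9.18 at week 6 high fat (1.21, SE 0.44, limma adjusted p = 0.0837). miR-5100, of the same list, went the other way, with 9.05, 11.62 and 11.80 at week 30 high fat, against 12.21, 12.61 and 13.67 at week 6 high fat (-2.01, SE 0.74, limma adjusted p = 0.0837).

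The difference varied with base composition across miRNAs. The mature sequence was known for 496 of the 609 tested miRNAs. The median share of G and C was 63.6% among those above on all week 30 arrays, 40.9% among those below, and 54.5% over all 496. The 150 with the most G and C (from 61.9%) had a median log2 difference of 1.06, with 82 above and 1 below on all week 30 arrays, while those with at most 50% had a median of -0.97, with 13 above and 57 below. Across these miRNAs, which share the same 6 arrays and are not replicates, Pearson's r between G and C share and difference was 0.54 and Spearman's rho 0.57. In chow, over the same weeks, r was 0.27. Within week 6 high fat, where diet and week do not vary, the difference of replicate 1 from the mean of replicates 2 and 3 gave an r of 0.44. The part of base composition in the week difference was not tested.

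**Figure D4:**
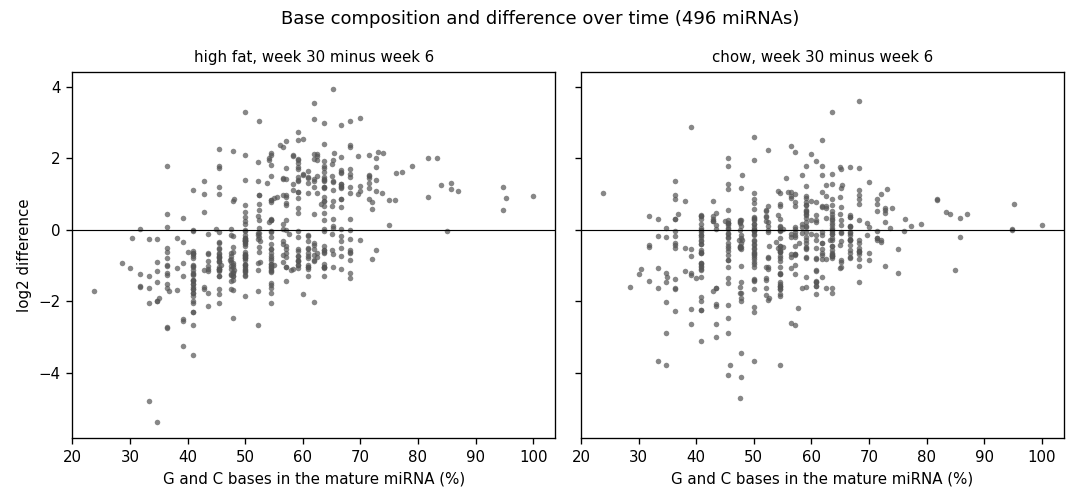
Log2 difference between week 30 and week 6 against the share of G and C bases in the mature miRNA for 496 tested miRNAs, in high fat (left) and chow (right). In high fat the points run upward with G and C (r 0.54), and in chow less so (r 0.27).

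miRNAs with high numbers in miRBase, which were added late to that catalogue, were common among those that lay higher. Of the 161 above on all week 30 arrays, 83 (51.6%) had a number of 6000 or more, against 1 of the 71 below (1.41%) and 31.9% of all 609 tested.

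Detection itself separated the weeks for few miRNAs. Detected on all 3 week 30 arrays and on 0 week 6 arrays was 1 of 1881, miR-542-5p, with 3.09, 3.47 and 3.51 at week 30, at least 1.14-fold higher. Detected on 0 week 30 arrays and on all 3 week 6 arrays was also 1, miR-181c-5p, at least 2.17-fold lower (limma adjusted p = 0.119). miR-542-5p was named because it was the only one of its kind.

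The chow arm covered the same weeks, with chow week 30 on slide 2 and chow week 6 on slide 1. There 40 of 609 miRNAs were called lower (6.57%) and 0 higher, and leaving out week 30 chow replicate 3, week 6 chow replicate 1 or week 6 chow replicate 2 brought the 40 to 21, 21 and 25. With only the compared groups fitted 159 were called, 26 of them higher, and with array weights 296 were called, 110 of them higher. By position, 189 lay below on all week 30 arrays (31%) and 74 above (12.2%). Of the 40, 34 had a negative difference in high fat, where the median over all 609 tested was itself negative (-0.40). Of the same 40, 6 lay below on all week 30 high fat arrays (11.7% over all tested). Both arms of miR-142 fell in chow too, by 3.77 and 3.67 on the log2 scale (limma adjusted p = 0.0286 and 0.0202). For these arms the difference between the diets in the change over time was -1.59 (SE 1.44, limma adjusted p = 0.673) and -1.12 (SE 1.32, limma adjusted p = 0.741). miR-20b-5p fell by 3.46 in chow (limma adjusted p = 0.00362), and the difference between the diets was 0.99 (SE 0.97, limma adjusted p = 0.697). The lymphocyte list had a median of -3.27 in chow, with 7 of its 8 tested called lower (6.57% over all tested). For miR-17~92 and paralogs it was -2.20, with 9 of 13 called lower. Other lists moved less or upward in chow, such as the miR-15 and miR-16 family (-0.11) and the Sfmbt2 families (0.52). miR-21a-5p had 10.20, 11.07 and 10.01 at week 30 chow, against 10.70, 10.87 and 10.20 at week 6 chow (-0.16, limma adjusted p = 0.937). Its change in high fat minus that in chow was -2.55 (SE 1.11, limma adjusted p = 0.438).

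The change over time in high fat was tested directly against that in chow, and 5 of 609 miRNAs were called (0.821%). Both week 6 groups lay on slide 1, but week 30 high fat lay on slide 3 and week 30 chow on slide 2. Diet and slide therefore cannot be told apart in this contrast. All 5 had fallen in chow by limma's test and had not passed it in high fat. Leaving out single arrays moved this count: 1 was called if either of the week 6 chow arrays 1 and 2 was dropped, 2 if the third array of either week 30 group was, 3 if the first array of either week 30 group was, 6 without week 6 high fat replicate 2, and 7 (2 of them with the opposite sign) without week 6 high fat replicate 3. miR-181b-5p had 5.09, 4.68 and 4.81 at week 30 high fat, against 4.91, 6.07 and 6.53 at week 6 high fat (-0.98, SE 0.41, limma adjusted p = 0.114). In chow it had 4.72, 4.93 and 4.50 at week 30, against 8.76, 8.68 and 8.09 at week 6. The difference between the diets in this change was 2.82 (SE 0.58, limma adjusted p = 0.0222). miR-181a-1-3p, from the other arm of a miR-181 hairpin, was detected on 0 of the 6 high fat arrays and had 3.09 on all 3 week 30 chow arrays, against 6.93, 7.05 and 6.29 at week 6 chow. Its difference between the diets was 3.40 (SE 0.47, limma adjusted p = 0.000876).

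The other 3 were at or near the floor on every high fat array. Within the 4 groups, these 3 and miR-181a-1-3p were detected on all arrays of week 6 chow alone, the group in which they are high, so their calls rest on the group through which they entered the test. miR-363-3p, of a paralog cluster of miR-17~92 on the X chromosome, had 3.09 on all high fat arrays of both weeks and on all week 30 chow arrays, against 5.42, 5.61 and 4.98 at week 6 chow. miR-466p-5p and miR-466a-5p, of the Sfmbt2 cluster, ranged from 5.08 to 5.84 and from 4.54 to 5.41 at week 6 chow and reached at most 3.55 elsewhere in the 4 groups. In these 5 the contrast rests on the week 6 chow arrays, of which replicates 1 and 2 are a near-identical pair (SD of their log2 differences 0.28). When near-identical arrays were averaged, 1 was called. miR-128-3p, from a pair of loci on chromosomes 1 and 9, showed the same order of levels, with 4.78, 4.64 and 4.91 at week 30 chow, against 9.62, 9.79 and 9.06 at week 6 chow, but its difference between the diets of 3.07 did not pass (SE 0.74, limma adjusted p = 0.0684).

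**Figure D5:**
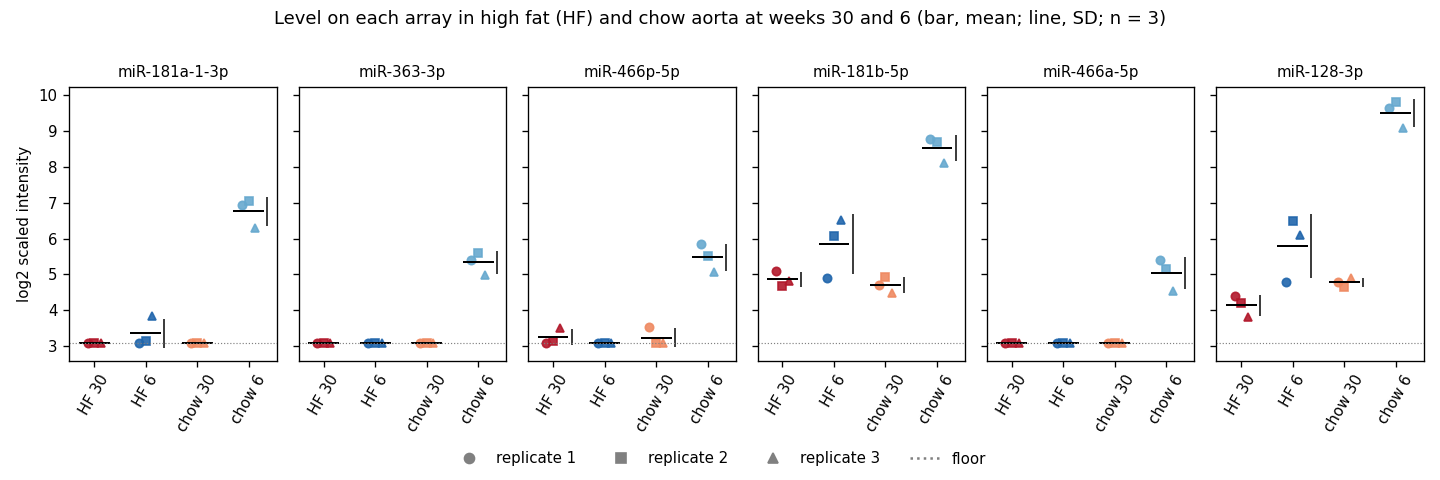
Log2 scaled intensity on each array for the 5 miRNAs called in the comparison of changes over time and for miR-128-3p, which was not called, in high fat (HF) week 30 and week 6 and in chow week 30 and week 6 (bar, mean; line, SD; n = 3). In each panel the week 6 chow arrays lie above the other 9.

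Between these weeks the high fat arm was sampled at week 18. The steps share arrays with the comparison above, so their values are given side by side. From week 6 to week 18 0 miRNAs were called (0%) by limma, with 61 at an unadjusted p under 0.05, and from week 18 to week 30 0 were called (0%), with 18. miR-142a-3p had 8.05, 11.10 and 11.70 at week 6, 8.89, 7.72 and 6.35 at week 18, and 3.09, 5.97 and 5.70 at week 30, and its steps were -2.63 and -2.73. miR-146a-5p had 5.17, 7.54 and 7.30 at week 6, 7.60, 5.38 and 3.09 at week 18, and 3.09, 3.32 and 3.14 at week 30. miR-188-5p had 8.72, 6.47 and 6.62 at week 6, 9.43, 7.58 and 10.24 at week 18, and 10.15, 10.42 and 10.58 at week 30. In each of these 3 the week 18 arrays span most of the gap between the nearest arrays of week 6 and week 30. Their replicate 3, which lay on slide 3 with the week 30 arrays and differed from week 30 replicate 2 by an SD of only 0.19, is close to week 30. It is also the array with the wide negative controls, and the part of its quality in these levels was not tested. The described and recorded slide positions disagree for 1 week 18 high fat array in a way that would move it to chow.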

How the data were processed

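Per the labels' protocols, total RNA was taken with TRIZOL, labelled with Cy3 and hybridised to 1-colour Agilent mouse miRNA arrays. The authors deposited linear spot intensity as Agilent Feature Extraction 11.5.1 writes it, background-subtracted and not scaled between arrays, per the file headers and the submitters' processing notes. Control and outlier-flagged spots were dropped (0 were saturated), and means were taken first over the spots of a probe, then over the probes of a miRNA. Detection required that 1 probe have 0.5 or more of its usable spots well above background. To scale an array, its values were divided by their 75th percentile among miRNAs that all 20 arrays detected, a floor was set at the median over arrays of the lowest 1% point of detected signals (3.09 on the log2 scale), and log2 was taken. The deposited intensities were thus turned into log2 values here.

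The model was fitted with limma 3.58.1 in R 4.3.3 (lmFit, then eBayes) to 20 arrays in 7 groups, with 13 residual degrees of freedom, 2-sided, with Benjamini-Hochberg adjustment at 0.05 over 609 miRNAs. The fit was tested on simulated data with independent normal noise and no array or slide effect. It recovered 22.8% of changes of 1 on the log2 scale and 59.6% of changes of 2. For changes of 3 and 4 it recovered 87.6% and 96.8%. The number of arrays limits the precision. Where a miRNA was detected on 0 arrays of a group, its fold is a bound, taken per array against whichever is higher of its own signal and the lowest signal detected there.

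The comparison, the 24 lists and the panel of 37 miRNAs were chosen with earlier results of these data known. Named miRNAs follow a rule: those called in the week comparison, with the smallest p added up to 8 per direction; the panel; up to 4 per list; and those called between the diets. From it, those with values in the text are a part, and miR-542-5p and miR-7036a-5p were added after their values were seen. Of the panel, miR-21a-3p and miR-33-5p were not tested. The alternatives changed the scaling, background, filter, floor, probe summary, samples, weights and blocks. Host genes come by name and position from a RefSeq table of GRCm38.p6, and probe positions from the files (mm9). Mature sequences were matched by name for 496 of 609 tested miRNAs.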

Additional observations from a re-analysis of the deposited data

Results flagged for a closer look

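The 5 miRNAs whose change from week 6 to week 30 differed between the diets by limma's test of that difference had each fallen in chow and not passed the test in high fat. As the change in high fat minus that in chow on the log2 scale, the values were 3.40 for miR-181a-1-3p, 2.24 for miR-363-3p, 2.40 for miR-466p-5p, 2.82 for miR-181b-5p and 1.95 for miR-466a-5p (limma adjusted p = 0.000876, 0.0107, 0.0142, 0.0222 and 0.0302). For all but miR-181b-5p the high fat levels of both weeks lay at or near the floor, so these values depend on where the floor is set. The diets lay on different slides at week 30, so diet and slide cannot be told apart in them. Groups of 3 arrays are too small for a test of single arrays that stand apart.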

How the results depend on the processing

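The 0 higher and 2 lower calls of the week comparison became 13 and 3 with the percentile over all miRNAs, 60 and 10 with quantile normalization, 3 and 3 with normexp, 9 and 1 without the detection filter, 76 and 18 with array weights, 1 and 3 without week 18 high fat replicate 3 (an alternative chosen after seeing the data), 0 and 1 with the floor lower by 1, and 0 and 0 with no scaling, with only the miRNAs detected on all arrays, with the median of probes, with only the compared groups, with near-identical arrays averaged, and without the array with the fewest detected miRNAs of each high fat group. The 1 lower call without the detection filter was neither arm of miR-142. The calls stayed 0 and 2 with the deposited value table and with the slide as a random block (correlation 0.0008852). The block cannot show a slide effect on this comparison, since all week 30 arrays lay on slide 3 and all week 6 arrays on slide 1. Of all groups only week 18 high fat lay on more than 1 slide. Leaving out 1 array of the compared groups gave 0 to 78 higher and 0 to 64 lower, the high values without week 6 high fat replicate 1. The deviations of same-numbered arrays from their group means correlated at -0.07, 0.38 and -0.33. With 3 arrays per group these deviations sum to 0, so the values cannot show whether same-numbered arrays share more than a number. The fit with the replicate block gave 72 higher and 28 lower. The cause of these moves was not tested, beyond the fewer samples or miRNAs that an alternative itself brings.

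The 5 calls between the diets became 0 with the percentile over all miRNAs, no scaling, normexp and only the miRNAs detected on all arrays, 1 with quantile normalization and with near-identical arrays averaged, 2 with the value table, 11 without the filter, 35 with weights (9 of them lower), and 1 to 7 when 1 array was left out. The 40 chow calls became 16 with the percentile over all miRNAs, 6 with no scaling, 2 with the miRNAs detected on all arrays, 17 with the lower floor and with averaged arrays, 159 with only the compared groups (26 of them higher), 296 with weights (110 higher), 68 without the arrays with fewest detected miRNAs, and 21 to 40 when 1 array was left out. From week 18 to week 30, 3 were called without the filter and 18 with weights.

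Of 1864 values for 87 named miRNAs, 14 changed sign: miR-466p-5p with the value table (-0.60), miR-378a-3p with weights (-0.019) and without 1 array (range -0.021 to 0.83), miR-210-3p without 1 array (-0.057 to 0.56), miR-143-3p with averaged arrays (-0.29) and without 1 array (-0.30 to 0.74), and miR-222-3p with averaged arrays (0.17) and without 1 array (-0.67 to 0.25).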
